A study of Mus musculus with 20 samples.

Results

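The matrix metalloproteinase (Mmp), ADAMTS (a disintegrin and metalloproteinase with thrombospondin motifs) and TIMP (tissue inhibitor of metalloproteinases) genes were followed in the knee joints of osteoarthritic mice that had received stromal cell therapy. Members were chosen by gene symbol alone: every symbol that was Mmp followed by a number and at most 1 letter, Adamts followed by a number, or Timp1 to Timp4. These were 38 of the 14793 genes in the table, with 16 Mmp, 18 Adamts and 4 Timp genes. All 38 were above 0 in each of the 20 joints and entered every test. A further 8 genes of these families (Mmp1a, Mmp1b, Mmp7, Mmp10, Mmp20, Mmp21, Mmp24 and Adamts13) were not analysed here.

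All 20 mice were 12-week-old male C57BL/6Nci animals with surgical destabilization of the medial meniscus (DMM) of the right knee, an operation that makes the joint unstable and leads to osteoarthritis. Control mice received needle insertion alone, MSC mice received non-activated adipose-derived mesenchymal stromal cells, TLR3-MSC mice received the same cells activated with the double-stranded RNA mimic polyinosinic-polycytidylic acid (pIC), and STING-MSC mice received cells activated with the cyclic dinucleotide 2′3′-cGAMP. Injections were given in weeks 3 and 5 after surgery, and 5 joints per group, each from a separate mouse, were sequenced. The injected cells came from 1 pool of donor mice of the same strain, an unoperated knee was not analysed here, and the study's text gives more than one time of tissue collection. Cartilage, synovium, capsule and subchondral bone were taken en bloc, so that fewer cells of a type and less RNA per cell cannot be told apart in any value given here.

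Mmp genes encode zinc endopeptidases that are made as inactive proenzymes and that cut collagens, denatured collagen, proteoglycans and other matrix proteins. Aggrecanases of the ADAMTS family release aggrecan from cartilage, an early event in osteoarthritis, whereas collagenases cut the triple helix of type II collagen, after which the loss of cartilage is held to be hard to reverse. TIMP proteins bind the catalytic site of the active enzymes, and Timp3 protein also inhibits the aggrecanases.

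Values are normalized counts, which are read counts divided by a size factor per library, and library depth was between 27955496 and 52529973 recovered reads. For each comparison, limma was fitted to log2(normalized count + 1) of all 14793 genes in all 20 joints. A gene was called higher or lower where its unadjusted p did not exceed 0.05, and the Benjamini-Hochberg false discovery rate (FDR) over all genes stands beside it. The exact permutation test was two-sided over 5 joints against 5, for which 0.00794 is the smallest possible p. Where leaving out a joint ended a call (limma p above 0.05), the joint is named with the log2 fold change found without it. The measured tissue carried transcripts of each tissue taken: summed normalized counts ranged from 18689 to 205842 for 9 chondrocyte markers, from 24417 to 560794 for 6 synovial fibroblast markers and from 11633 to 43250 for 7 osteoblast and osteocyte markers. Markers of skeletal muscle (591147 to 2583067 for 4 markers), neutrophils (394846 to 963092 for 11) and erythroid cells (391748 to 893769 for 4) were also present in every joint.

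Per kilobase of exon, the most abundant member was Mmp9, a gelatinase stored in neutrophil granules and made by osteoclasts, with a mean of 9158 normalized counts per kb and a range of 6492 to 11555 over the 20 joints. Timp2 followed with a mean of 6434 per kb, and Mmp8, the neutrophil collagenase, with 5296 per kb. Mmp13, the main collagenase of cartilage and bone, was at 3468 per kb, Mmp2 at 2564, Timp1 at 1434 and Mmp14 at 1308. The ranges of these neighbours overlapped: Timp2 spanned 1822 to 11456 per kb and Mmp8 3043 to 7254 per kb. The ADAMTS genes were lower. Adamts2 led them at 415 per kb, the aggrecanases Adamts1, Adamts5 and Adamts4 had means of 203, 183 and 43.1 per kb, and Adamts19 was the lowest member at 1.75 per kb.

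**Figure D1:**
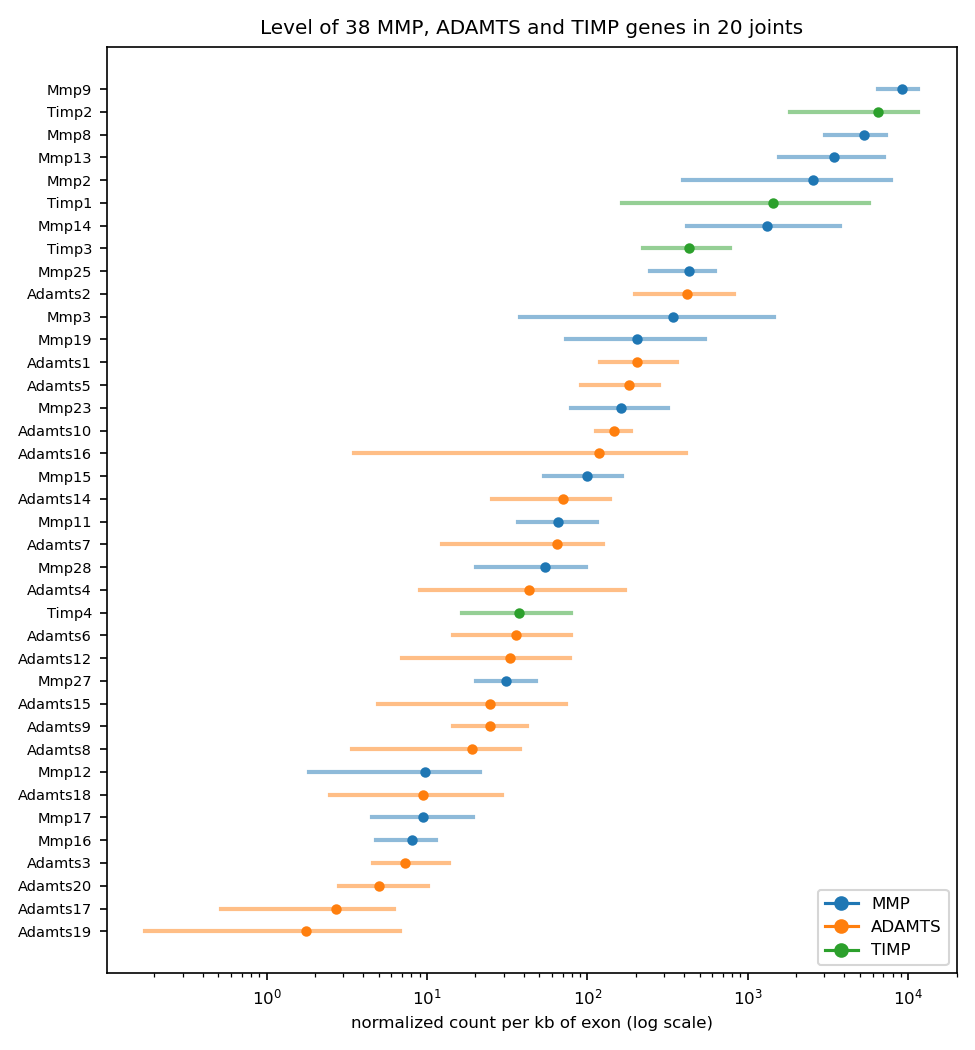
Level of each of the 38 genes as normalized counts per kb of exon (log axis), with the mean over 20 joints as a point and the lowest to highest joint as a bar; blue is Mmp, orange Adamts and green Timp. Mmp9, Timp2 and Mmp8 are at the top with means of 9158, 6434 and 5296 per kb, and most Adamts genes lie below 200.

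With every joint included, joints given STING-MSC differed from control joints in more members than the other treated groups did. In STING-MSC joints 4 of the 38 genes were called higher and 16 lower than in control joints, where 6.54% of all genes were called higher and 5.69% lower. The median log2 fold change of the members was -0.67, against 0.01 over all genes, and 31 of the 38 had a negative value. Of the called genes, 11 changed at least 2-fold (10 lower, 1 higher), against 1.78% of all genes for lower and 0.277% for higher. After MSC, 2 members were called higher and 1 lower (background 5.64% and 2.91%), with a median of -0.45 against -0.04 over all genes. After TLR3-MSC, 2 were called higher and 1 lower (background 2.68% and 0.906%), with a median of -0.16 against -0.01. These 3 comparisons share the same 5 control joints. Single joints decided the smaller counts. After MSC the count was 21 without MSC joint 2 (2 higher and 19 lower) and 12 without control 1 (2 higher and 10 lower). It was 6 without control 5, 5 without MSC joint 5 and 1 without control 4. Without MSC joint 2, the genes called lower included Mmp2, Mmp3, Mmp13, Mmp14, Timp1, Adamts4, Adamts7 and Adamts16, which were also called lower after STING-MSC. After TLR3-MSC the count was 6 without TLR3-MSC joint 5, 5 without control 1, and 1 without control 4 or TLR3-MSC joint 4. The calls over all genes moved too. After MSC, 835 were higher and 430 lower with every joint, 1125 and 1343 without MSC joint 2, and 1046 and 618 without control 1. They were 663 and 468 without control 5, 1199 and 727 without MSC joint 5, and 593 and 259 without control 4. After TLR3-MSC, 396 were higher and 134 lower, 389 and 174 without TLR3-MSC joint 5, and 593 and 217 without control 1. They were 356 and 119 without control 4, and 217 and 83 without TLR3-MSC joint 4.

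No member reached an FDR of 0.05 in limma in any of the 6 comparisons, and the lowest was 0.289; of all genes, 0.00676% did after MSC and 0% in the other comparisons. In STING-MSC against control joints, DESeq2 on the recovered reads gave 2 members under 0.05, Mmp14 (FDR = 0.0444) and Adamts16 (FDR = 0.0486), and edgeR gave 0. Of all 14793 genes, DESeq2 placed 85 at an FDR of at most 0.05 and edgeR 0. Across the 4 groups, 5 members had an F-test p of at most 0.05 (Adamts16, Adamts19, Mmp8, Mmp14 and Mmp25), against 6.42% of all genes, and the lowest FDR was 0.63. The STING-MSC count rested on single joints: it was 8 without control 4, 12 without control 3 and 12 without STING-MSC 5, and 23 without control 1. Over all genes, 967 were higher and 841 lower with every joint, 594 and 274 without control 4, and 740 and 365 without control 3. They were 595 and 428 without STING-MSC 5, and 1164 and 1165 without control 1. The calls for Mmp2, Mmp8, Mmp11, Mmp14, Mmp25, Adamts3, Adamts16 and Adamts19 were kept whichever of the 10 joints was left out.

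**Figure D2:**
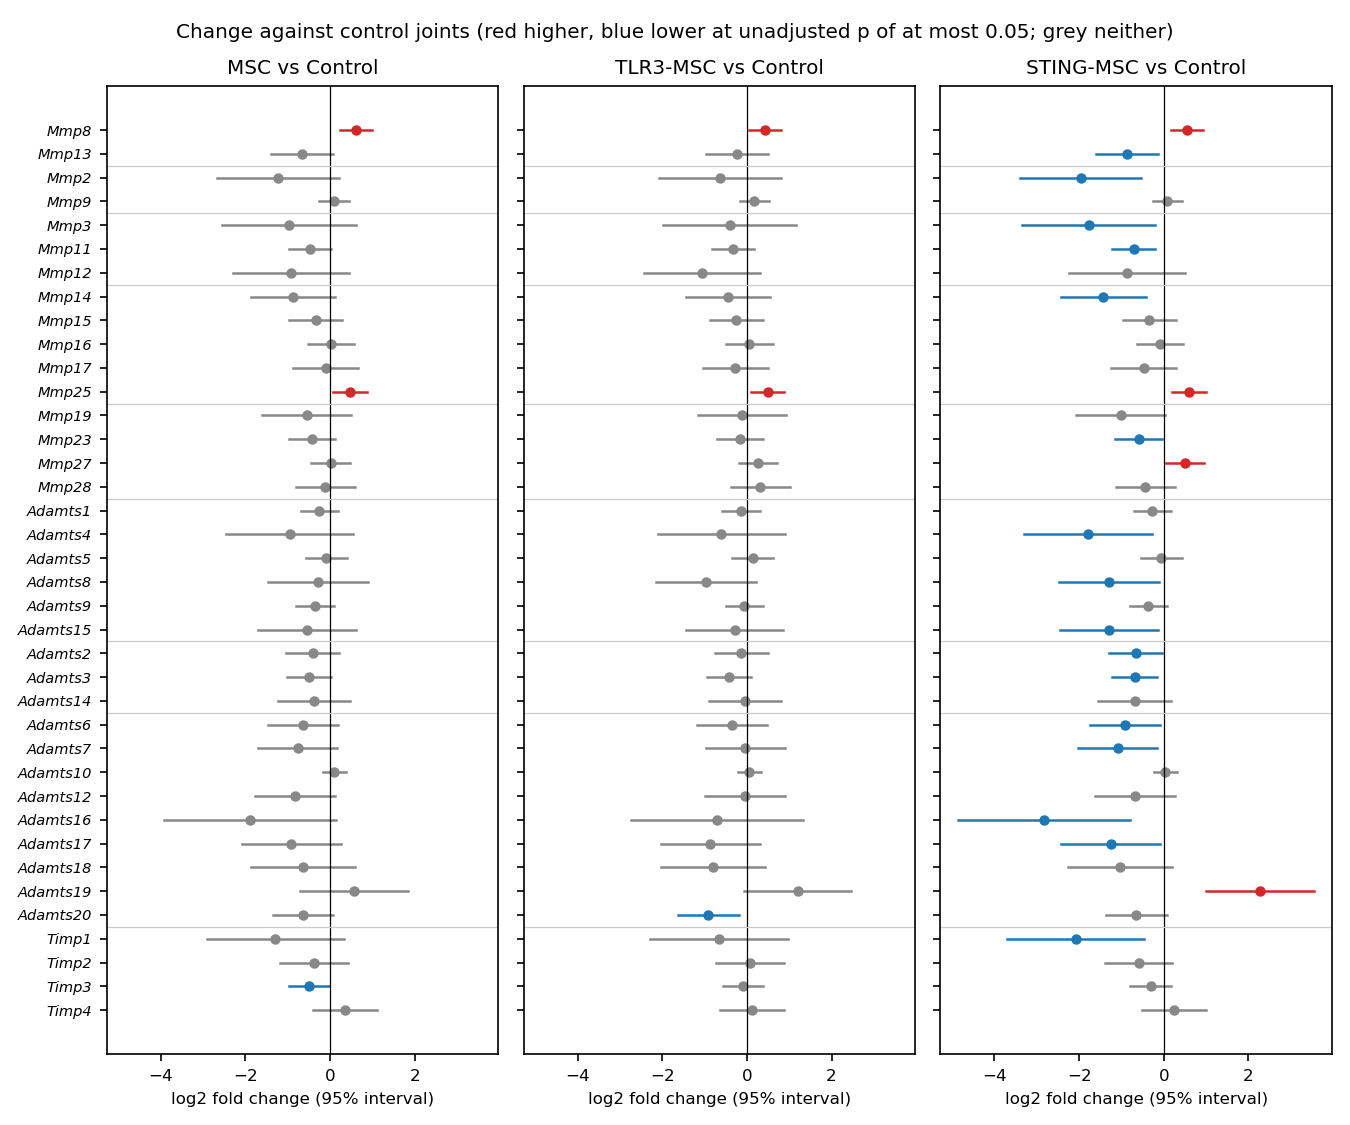
Log2 fold change of each of the 38 genes against control joints after MSC, TLR3-MSC and STING-MSC, in order of role (grey lines separate the roles); points are limma estimates and bars 95% intervals over 5 joints against 5. After STING-MSC 16 genes lie below 0 (blue) and 4 above (red) as called by limma, against 1 and 2 in each of the other panels.

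The collagenases Mmp8 and Mmp13 moved in opposite directions after STING-MSC. Mmp8, whose product is released by neutrophils and cuts fibrillar collagen, was at 13064, 10421, 8228, 7383 and 9242 in control joints, at 17543, 10978, 16179, 17293 and 11753 after MSC, at 13730, 11552, 11705, 16230 and 11089 after TLR3-MSC and at 13237, 9899, 15900, 13921 and 17598 after STING-MSC (joints 1 to 5 in each group). Control joints reached at most 13064, and 3 MSC, 2 TLR3-MSC and 4 STING-MSC joints exceeded every control joint, while the remaining treated joints overlapped with control. Mmp8 was higher after MSC (log2 fold change 0.61 ± 0.18 (SE), p = 0.0032, FDR = 0.303, exact permutation p = 0.0318), after STING-MSC (log2 fold change 0.55 ± 0.18 (SE), p = 0.00692, FDR = 0.31, exact permutation p = 0.0318) and after TLR3-MSC (log2 fold change 0.43 ± 0.18 (SE), p = 0.0295, FDR = 0.9997, exact permutation p = 0.0556). The last call was lost without control 3 (0.38), control 4 (0.34), TLR3-MSC 1 (0.40) and TLR3-MSC 4 (0.34).

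Mmp13, which cuts type II collagen, was at 6787, 12718, 18942, 15865 and 7456 in control joints, at 8371, 10783, 9648, 5467 and 4192 after MSC, at 15525, 6313, 16113, 4957 and 10811 after TLR3-MSC and at 7275, 4794, 7281, 6101 and 5984 after STING-MSC. Control joints 2, 3 and 4 and TLR3-MSC joints 1 and 3 were high, and all 5 STING-MSC joints lay between 4794 and 7281. Mmp13 was lower after STING-MSC than in control joints (log2 fold change -0.88 ± 0.35 (SE), p = 0.0214, FDR = 0.368, exact permutation p = 0.0318), with 3 STING-MSC joints below every control joint. Its differences after MSC (-0.66, p = 0.0762, exact permutation p = 0.135) and after TLR3-MSC (-0.24, p = 0.503, exact permutation p = 0.595) were not called. The STING-MSC call was lost without control 3 (-0.69), control 4 (-0.76) and STING-MSC 2 (-0.78). Per kb, Mmp8 was 2.49 ± 0.462 times Mmp13 after STING-MSC and 1.08 ± 0.686 times in control joints (mean ± SD of the ratio, n = 5), and the ratios of these groups overlapped (2.01 to 3.24 against 0.479 to 2.12).

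**Figure D3:**
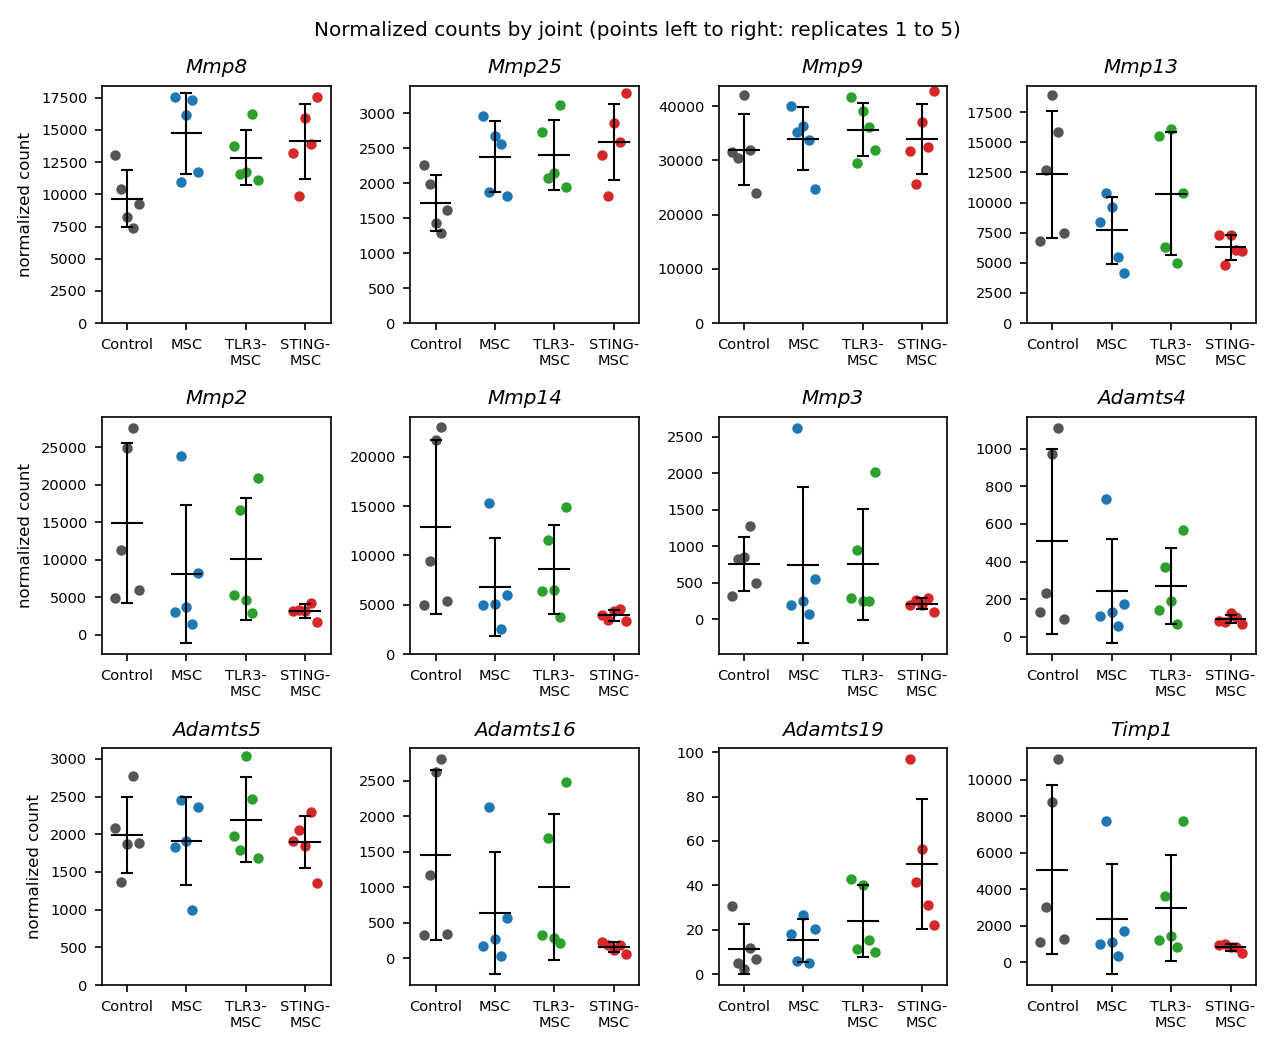
Normalized counts of 12 genes in each of the 20 joints (linear axes); points are joints 1 to 5 from left to right in each group, horizontal bars group means and error bars SD (n = 5). Mmp2, Mmp14, Mmp3, Adamts4, Adamts16 and Timp1 share high values in control joints 3 and 4, MSC joint 2 and TLR3-MSC joint 5, and are low in every STING-MSC joint, whereas Mmp9 and Adamts5 overlap in all groups.

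The promoters of the 2 collagenases, of the stromelysin gene Mmp3, of the inhibitor gene Timp1 and of Mmp25 are shown because these genes include both directions of change. The 250 bases before the RefSeq transcript start are printed 5′ to 3′ (sequence from the RefSeq promoter table of build GRCm38.p6, placed on GRCm39 by exact match). Capitals mark matches, on either strand, to AP-1 (TGANTCA), C/EBP (TTGCNNAA), RUNX (TGTGGT) or PU.1 (GAGGAAGT) letters.
Mmp13: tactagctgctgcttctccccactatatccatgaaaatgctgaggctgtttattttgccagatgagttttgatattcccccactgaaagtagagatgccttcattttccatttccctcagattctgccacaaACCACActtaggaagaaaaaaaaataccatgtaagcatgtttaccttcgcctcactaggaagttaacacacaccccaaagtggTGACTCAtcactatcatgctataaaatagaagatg
Mmp3: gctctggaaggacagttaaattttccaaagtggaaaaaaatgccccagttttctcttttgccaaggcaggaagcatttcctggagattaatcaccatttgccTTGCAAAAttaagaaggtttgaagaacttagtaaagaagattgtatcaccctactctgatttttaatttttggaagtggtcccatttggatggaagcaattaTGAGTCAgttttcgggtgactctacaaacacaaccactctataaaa
Timp1: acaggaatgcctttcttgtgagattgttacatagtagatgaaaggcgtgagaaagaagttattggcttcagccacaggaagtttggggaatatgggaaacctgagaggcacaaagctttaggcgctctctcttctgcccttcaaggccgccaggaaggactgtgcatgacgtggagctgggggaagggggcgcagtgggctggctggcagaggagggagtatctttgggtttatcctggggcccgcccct
Mmp8: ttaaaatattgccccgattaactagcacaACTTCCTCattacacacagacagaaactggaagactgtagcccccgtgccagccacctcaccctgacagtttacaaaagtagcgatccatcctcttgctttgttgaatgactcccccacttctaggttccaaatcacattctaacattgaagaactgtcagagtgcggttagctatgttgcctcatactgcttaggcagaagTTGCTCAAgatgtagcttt
Mmp25: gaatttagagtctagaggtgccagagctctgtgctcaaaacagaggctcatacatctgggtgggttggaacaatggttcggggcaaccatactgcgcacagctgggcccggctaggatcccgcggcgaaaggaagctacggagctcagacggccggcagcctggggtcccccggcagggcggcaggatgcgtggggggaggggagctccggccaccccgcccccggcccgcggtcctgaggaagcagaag
On GRCm39 these windows are chr9:7272264-7272513 (plus strand) for Mmp13, chr9:7445572-7445821 (plus strand) for Mmp3, chrX:20736155-20736404 (plus strand) for Timp1, chr9:7558180-7558429 (plus strand) for Mmp8 and chr17:23864244-23864493 (minus strand) for Mmp25. Mmp13 held an AP-1 match whose first base was 35 bases before the start and a RUNX match at 118, Mmp3 an AP-1 match at 46 and a C/EBP match at 148, and Mmp8 a C/EBP match at 19 and a PU.1 match at 221. The printed windows of Timp1 and Mmp25 held none of these letters. Of the 38 members, 24 had a promoter in the table, and 2 of them held AP-1, 4 C/EBP, 4 RUNX and 2 PU.1 letters, against 6.75%, 9.56%, 14% and 2.44% of all 32851 promoters. A match describes the letters in the window and not a bound site.

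Of the gelatinases, Mmp2 fell after STING-MSC and Mmp9 was not called in any comparison. Mmp2, a gelatinase of fibroblasts and other stromal cells, was at 4872, 11327, 24887, 27590 and 5940 in control joints, at 3061, 23845, 3757, 1398 and 8315 after MSC, at 5379, 16652, 4633, 2902 and 20913 after TLR3-MSC and at 3156, 3295, 3232, 4317 and 1702 after STING-MSC. Control joints 3 and 4, MSC joint 2 and TLR3-MSC joints 2 and 5 held the 5 highest values, and every STING-MSC joint lay below every control joint. Mmp2 was lower after STING-MSC (log2 fold change -1.97 ± 0.69 (SE), p = 0.00991, FDR = 0.33, exact permutation p = 0.00794) and was not called after MSC (-1.23, p = 0.0893, exact permutation p = 0.191) or TLR3-MSC (-0.63, p = 0.368, exact permutation p = 0.397). Mmp9 was at 31514, 30377, 42128, 31851 and 24040 in control joints, at 40088, 35287, 36373, 33740 and 24684 after MSC, at 41616, 29602, 39039, 36194 and 31984 after TLR3-MSC and at 31694, 25595, 37092, 32538 and 42787 after STING-MSC. All 4 groups overlapped, and its log2 fold changes against control were 0.09 (95% interval -0.25 to 0.44) after MSC, 0.17 (95% interval -0.17 to 0.51) after TLR3-MSC and 0.09 (95% interval -0.26 to 0.43) after STING-MSC.

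Non-overlap between STING-MSC and control joints was seen for 6 members, Mmp2, Mmp3, Mmp14, Timp1, Adamts7 and Adamts16, each lower after STING-MSC with an exact permutation p of 0.00794. Over all genes 2.17% did not overlap in either direction. Mmp3, stromelysin-1, which cuts proteoglycans and activates other pro-MMPs, was at 323, 829, 851, 1275 and 496 in control joints, at 197, 2622, 252, 68.4 and 546 after MSC, at 289.9, 940.4, 251, 251 and 2014 after TLR3-MSC and at 198, 262, 199, 295 and 99.8 after STING-MSC. MSC joint 2 and TLR3-MSC joint 5 held the highest values of all 20 joints. Mmp3 was lower after STING-MSC (log2 fold change -1.77 ± 0.75 (SE), p = 0.0295, FDR = 0.377, exact permutation p = 0.00794), a call lost without control 2 (-1.70), control 3 (-1.69), control 4 (-1.55) and STING-MSC 5 (-1.53). Mmp11, stromelysin-3, fell as well, from 294 ± 82.7 to 175 ± 28.6 (mean ± SD, n = 5; log2 fold change -0.71 ± 0.24 (SE), p = 0.00781, FDR = 0.317, exact permutation p = 0.0159). Mmp11 overlaps Chchd10 on the other strand, and because the counting strand is not stated, reads of the pair cannot be told apart. Mmp12, the macrophage elastase, ranged from 36.7 to 155 in control and from 17.5 to 133 in STING-MSC joints and was not called in any comparison.

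Among the 5 membrane-type genes, Mmp14 and Mmp25 changed in opposite directions after STING-MSC. Mmp14 encodes MT1-MMP, a collagenase of the cell surface that activates pro-MMP2 together with Timp2 protein, and was at 4968, 9471, 21733, 22999 and 5398 in control joints, at 4932, 15369, 5062, 2568 and 6040 after MSC, at 6362, 11570, 6507, 3730 and 14891 after TLR3-MSC and at 3932, 3471, 4382, 4528 and 3329 after STING-MSC. Every STING-MSC joint, at 3329 to 4528, was below every control joint. Mmp14 was lower after STING-MSC (log2 fold change -1.43 ± 0.48 (SE), p = 0.00744, FDR = 0.315, exact permutation p = 0.00794), and its values after MSC (-0.88, p = 0.0794, exact permutation p = 0.175) and TLR3-MSC (-0.45, p = 0.355, exact permutation p = 0.46) were not called.

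Mmp25, a membrane-anchored MMP of neutrophils, was at 2258, 1983, 1426, 1293 and 1624 in control joints, at 2957, 1877, 2674, 2565 and 1822 after MSC, at 2731, 2070, 2141, 3112 and 1949 after TLR3-MSC and at 2401, 1814, 2856, 2595 and 3291 after STING-MSC. The highest value stood in STING-MSC joint 5, and 3 MSC, 2 TLR3-MSC and 4 STING-MSC joints exceeded every control joint. Mmp25 was higher after STING-MSC (log2 fold change 0.60 ± 0.19 (SE), p = 0.00499, FDR = 0.296, exact permutation p = 0.0318), after TLR3-MSC (log2 fold change 0.49 ± 0.19 (SE), p = 0.0173, FDR = 0.9997, exact permutation p = 0.0635) and after MSC (log2 fold change 0.47 ± 0.19 (SE), p = 0.0208, FDR = 0.453, exact permutation p = 0.0556). The TLR3-MSC call was lost without control 4 (0.40) and TLR3-MSC 4 (0.39), and the MSC call without control 3 (0.41), control 4 (0.38) and MSC 1 (0.39). Mmp15, Mmp16 and Mmp17 were not called, with log2 fold changes between -0.47 and 0.06 in the 3 comparisons with control.

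Of the other Mmp genes, Mmp27 rose and Mmp23 fell after STING-MSC. Mmp27 ranged from 44.8 to 82.6 in control, 45.8 to 82.4 in MSC, 50.1 to 107 in TLR3-MSC and 73.7 to 103 in STING-MSC joints. It was higher after STING-MSC than in control (log2 fold change 0.51 ± 0.22 (SE), p = 0.0297, FDR = 0.378, exact permutation p = 0.0318) and than after MSC (log2 fold change 0.49 ± 0.22 (SE), p = 0.034, FDR = 0.938, exact permutation p = 0.0318). Mmp23 fell from 541 ± 218 to 337 ± 33.2 (log2 fold change -0.60 ± 0.26 (SE), p = 0.0342, FDR = 0.382, exact permutation p = 0.0556). Against control, Mmp27 lost its call without control 2 (0.42), control 4 (0.41) and STING-MSC 5 (0.43), and Mmp23 without control 3 (-0.49), control 4 (-0.41), STING-MSC 1 (-0.59), STING-MSC 4 (-0.58) and STING-MSC 5 (-0.55). Mmp19 was not called by limma (log2 fold change -1.01 ± 0.50 (SE), p = 0.0578, FDR = 0.422, exact permutation p = 0.0238). In edgeR, in DESeq2 and in a limma fit of STING-MSC and control joints only, Mmp19 was called lower. Mmp28, epilysin, was lower after STING-MSC than after TLR3-MSC (295 ± 65.2 against 505 ± 132, log2 fold change -0.76 ± 0.33 (SE), p = 0.0345, FDR = 0.89, exact permutation p = 0.0159), and overlaps 1700020L24Rik on the other strand. The Mmp28 call was lost without TLR3-MSC 2 (-0.73), TLR3-MSC 3 (-0.71), TLR3-MSC 5 (-0.64), STING-MSC 3 (-0.75) and STING-MSC 5 (-0.63), and that of Mmp27 against MSC without MSC 3 (0.45), MSC 5 (0.41), STING-MSC 3 (0.49) and STING-MSC 5 (0.42) and in edgeR (0.45).

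The 2 major aggrecanase genes differed in their pattern. Adamts4 (chr1:171077990-171088207) was at 130.2, 233, 970.2, 1112 and 95.9 in control joints, at 112, 732, 133, 58.5 and 175 after MSC, at 144, 373, 189, 67.3 and 569.6 after TLR3-MSC and at 83.9, 79.5, 124, 106 and 70.0 after STING-MSC. Control joints 3 and 4, MSC joint 2 and TLR3-MSC joint 5 held the 4 highest values, whereas the STING-MSC joints held 70.0 to 124, and control joint 5 lay within the STING-MSC range. Adamts4 was lower after STING-MSC (log2 fold change -1.79 ± 0.72 (SE), p = 0.022, FDR = 0.368, exact permutation p = 0.0318), and the call was lost without control 3 (-1.39) and control 4 (-1.34).

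Adamts5 (chr16:85653061-85698717), the main aggrecanase of mouse cartilage, was at 2077, 1371, 1865, 2767 and 1880 in control joints, at 1826, 2460, 1906, 989.9 and 2360 after MSC, at 1975, 1785, 3042, 2473 and 1683 after TLR3-MSC and at 1917, 2056, 1850, 2296 and 1354 after STING-MSC. All 4 groups overlapped. Its log2 fold changes against control were -0.09 (95% interval -0.58 to 0.39) after MSC, 0.14 (95% interval -0.35 to 0.62) after TLR3-MSC and -0.06 (95% interval -0.54 to 0.43) after STING-MSC. Per kb, Adamts5 was 12.3 ± 2.42 times Adamts4 after STING-MSC, 5.41 ± 4.78 times in control, 7.6 ± 3.25 times after MSC and 8.77 ± 7.95 times after TLR3-MSC joints (mean ± SD, n = 5), with all ranges overlapping.

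Of the other aggrecanase genes, Adamts8 (122 ± 39.7 in control and 58.4 ± 42.5 after STING-MSC; log2 fold change -1.30 ± 0.57 (SE), p = 0.0341, FDR = 0.382, exact permutation p = 0.0556) and Adamts15 (332 ± 159 and 133 ± 52.9; log2 fold change -1.29 ± 0.55 (SE), p = 0.03, FDR = 0.378, exact permutation p = 0.0159) were called lower. Adamts8 lost its call without control 2 (-1.18), control 4 (-1.22), control 5 (-1.22), STING-MSC 1 (-0.99) and STING-MSC 4 (-1.04), with quantile normalization (-1.14) and in edgeR (-1.08). Adamts15 lost it without control 3 (-1.14), control 4 (-1.09) and STING-MSC 5 (-0.99). Adamts1 (-0.27, p = 0.213, exact permutation p = 0.333) and Adamts9 (-0.36, p = 0.104, exact permutation p = 0.222) were not called. In all, 3 of 6 aggrecanase genes were called lower after STING-MSC and 0 after MSC or TLR3-MSC, where 5.69%, 2.91% and 0.906% of all genes were.

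The procollagen N-propeptidase genes Adamts2, Adamts3 and Adamts14 encode the enzymes that trim the amino-terminal propeptide of fibrillar procollagens. After STING-MSC, Adamts2 fell from 4785 ± 1912 to 2885 ± 454 (log2 fold change -0.66 ± 0.30 (SE), p = 0.0403, FDR = 0.389, exact permutation p = 0.0238). Adamts3 fell from 106 ± 33.2 to 63.2 ± 12.4 (log2 fold change -0.69 ± 0.25 (SE), p = 0.0124, FDR = 0.331, exact permutation p = 0.0318). Adamts14 was not called by limma (-0.69, p = 0.107, exact permutation p = 0.167), and was called lower by DESeq2. Adamts2 lost its call without control 3 (-0.58), control 4 (-0.47), STING-MSC 2 (-0.64) and STING-MSC 5 (-0.56).

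Adamts16, a secreted metalloproteinase, had the largest fitted decrease of all members after STING-MSC against control. It was at 325, 1167, 2620, 2808 and 346 in control joints, at 176, 2126, 268, 23.9 and 562 after MSC, at 323, 1693, 289.6, 218 and 2478 after TLR3-MSC and at 222, 191, 110.5, 189.9 and 59.5 after STING-MSC. Control joints 2, 3 and 4, MSC joint 2 and TLR3-MSC joints 2 and 5 held the 6 highest values, and no STING-MSC joint exceeded 222. It was lower after STING-MSC than in control (log2 fold change -2.82 ± 0.97 (SE), p = 0.0091, FDR = 0.328, exact permutation p = 0.00794) and than after TLR3-MSC (log2 fold change -2.12 ± 0.97 (SE), p = 0.0415, FDR = 0.89, exact permutation p = 0.0159). The second call was lost without TLR3-MSC 2 (-1.76), TLR3-MSC 5 (-1.62), STING-MSC 3 (-2.04) and STING-MSC 5 (-1.82).

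Adamts7, which can cut cartilage oligomeric matrix protein, was at 327, 524, 692, 796 and 296 in control joints, at 247, 799, 302, 78.3 and 416 after MSC, at 303, 624, 439.7, 378 and 790.0 after TLR3-MSC and at 232, 280.1, 229, 254 and 169 after STING-MSC. Its STING-MSC values lay below every control and every TLR3-MSC joint. Adamts7 was lower after STING-MSC than in control (log2 fold change -1.09 ± 0.44 (SE), p = 0.0243, FDR = 0.37, exact permutation p = 0.00794) and than after TLR3-MSC (log2 fold change -1.05 ± 0.44 (SE), p = 0.0286, FDR = 0.89, exact permutation p = 0.00794), where 1.35% of all genes did not overlap. Its locus overlaps Tbc1d2b on the other strand, which had a mean of 3817 normalized counts against 409 for Adamts7, so that the counts of Adamts7 are uncertain. The call against control was lost without control 3 (-0.96), control 4 (-0.91) and STING-MSC 5 (-0.98), and that against TLR3-MSC without TLR3-MSC 2 (-0.96), TLR3-MSC 5 (-0.87) and STING-MSC 5 (-0.94).

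Adamts6 (369 ± 155 and 185 ± 29.6; log2 fold change -0.91 ± 0.39 (SE), p = 0.0331, FDR = 0.381, exact permutation p = 0.0159) and Adamts17 (46.7 ± 21.5 and 20.9 ± 14.4; log2 fold change -1.25 ± 0.56 (SE), p = 0.038, FDR = 0.387, exact permutation p = 0.0476) were called lower after STING-MSC than in control. Adamts6 lost its call without control 3 (-0.81), control 4 (-0.71), STING-MSC 1 (-0.86) and STING-MSC 5 (-0.84). Adamts17 lost its call without control 2 (-1.16), control 3 (-1.11), control 4 (-1.07), STING-MSC 2 (-1.13) and STING-MSC 5 (-0.89), and with quantile normalization (-1.04). Adamts20 was lower after TLR3-MSC (44.3 ± 13.7) than in control joints (85.3 ± 27.8; log2 fold change -0.91 ± 0.34 (SE), p = 0.0155, FDR = 0.9997, exact permutation p = 0.0397). Adamts10, a gene of fibrillin microfibrils, had log2 fold changes of 0.10, 0.06 and 0.04 after MSC, TLR3-MSC and STING-MSC.

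Adamts19 was the member with the largest fitted increase after STING-MSC against control. It was at 30.7, 4.83, 2.51, 11.9 and 6.80 in control joints, at 18.1, 5.89, 26.9, 4.95 and 20.4 after MSC, at 43.0, 11.3, 40.2, 15.5 and 10.2 after TLR3-MSC and at 97.0, 41.6, 56.3, 31.2 and 22.1 after STING-MSC. Control joint 1, at 30.7, lay within the STING-MSC range, and the other 4 control joints were below 12, under every STING-MSC joint. Adamts19 was higher after STING-MSC than in control (log2 fold change 2.28 ± 0.61 (SE), p = 0.00137, FDR = 0.289, exact permutation p = 0.0159) and than after MSC (log2 fold change 1.72 ± 0.61 (SE), p = 0.011, FDR = 0.852, exact permutation p = 0.0159). The value after TLR3-MSC was intermediate and not called (log2 fold change 1.2 ± 0.61 (SE), p = 0.0642, FDR = 0.9997, exact permutation p = 0.127). It was also the least abundant member per kb.

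Among the inhibitors, Timp1 fell and the other 3 were not called after STING-MSC. Timp1 was at 1099, 3008, 8811, 11159 and 1253 in control joints, at 991, 7729, 1103, 321 and 1709 after MSC, at 1190, 3633, 1459, 846 and 7765 after TLR3-MSC and at 920.5, 971, 856, 811 and 479 after STING-MSC. Control joints 3 and 4, MSC joint 2 and TLR3-MSC joint 5 held the 4 highest values, and all 5 STING-MSC joints were below every control joint. Timp1 was lower after STING-MSC (log2 fold change -2.08 ± 0.77 (SE), p = 0.0146, FDR = 0.346, exact permutation p = 0.00794), and the call was lost without control 4 (-1.65). Timp1 lies within the Syn1 locus, on the other strand, and Syn1 had a mean of 127 normalized counts against 2806 for Timp1.

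Timp2, which assists in the activation of pro-MMP2, ranged from 20031 to 50975 in control, 8133 to 51128 in MSC, 22290 to 45570 in TLR3-MSC and 12543 to 24489 in STING-MSC joints. Its log2 fold change after STING-MSC was -0.59 (95% interval -1.39 to 0.20). Timp3, the matrix-bound inhibitor of aggrecanases, was at 3268, 3193, 4161, 6347 and 3470 in control joints, at 2738, 4715, 2332, 1807 and 3152 after MSC, at 3508, 3866, 3928, 2586 and 5053 after TLR3-MSC and at 3447, 3772, 2747, 3460 and 2693 after STING-MSC. It was lower after MSC (log2 fold change -0.50 ± 0.23 (SE), p = 0.0444, FDR = 0.574, exact permutation p = 0.127), with 4 of 5 MSC joints below every control joint, and was not called after STING-MSC (-0.30, p = 0.202, exact permutation p = 0.151). The MSC call was lost without control 3 (-0.48), control 4 (-0.32), MSC 1 (-0.49), MSC 3 (-0.43) and MSC 4 (-0.34). It was also not called by DESeq2 or edgeR, or in a fit of these groups only. Timp4 ranged from 184 to 321 in control and from 202 to 610.4 in STING-MSC joints, with no call. Timp3 and Timp4 overlap Syn3 and Syn2 on the other strand.

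As sums per kb, all Mmp genes were 3.9 ± 1.7 times the 4 inhibitors after STING-MSC, 2.63 ± 0.571 times in control, 4.17 ± 2.87 times after MSC and 2.86 ± 0.979 times after TLR3-MSC (mean ± SD of the ratio, n = 5). These ranges overlapped: 2.43 to 6.79, 1.74 to 3.04, 1.88 to 8.91 and 1.9 to 4.37. The summed inhibitors were 5526 ± 1218 per kb after STING-MSC and 10438 ± 5420 in control joints, and the 6 aggrecanases 422 ± 79.9 and 577 ± 202. The collagenase sum, 8169 ± 1438 after STING-MSC and 8607 ± 1444 in control, held a rise of Mmp8 and a fall of Mmp13.

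Single joints held many of the extreme values. Control joint 4 had the highest value of its group for 27 of the 38 genes, MSC joint 2 for 28 and TLR3-MSC joint 5 for 23. These joints were the highest of their group for 29.19%, 26.92% and 23.94% of all genes. STING-MSC joint 5 was the lowest of its group for 26 members and MSC joint 4 for 23, and they were the lowest for 33.68% and 26.1% of all genes. STING-MSC joint 5 was also the joint of its group most often lowest over all genes. The spread between mice was smallest after STING-MSC for 27 of 38 members (71.05%), against 36.89% of all genes, with a median SD on the log2 scale of 0.34, compared with 0.57 in control, 0.78 after MSC and 0.55 after TLR3-MSC joints. No STING-MSC joint was among the high joints for Mmp2, Mmp14, Timp1 or Adamts16.

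**Figure D4:**
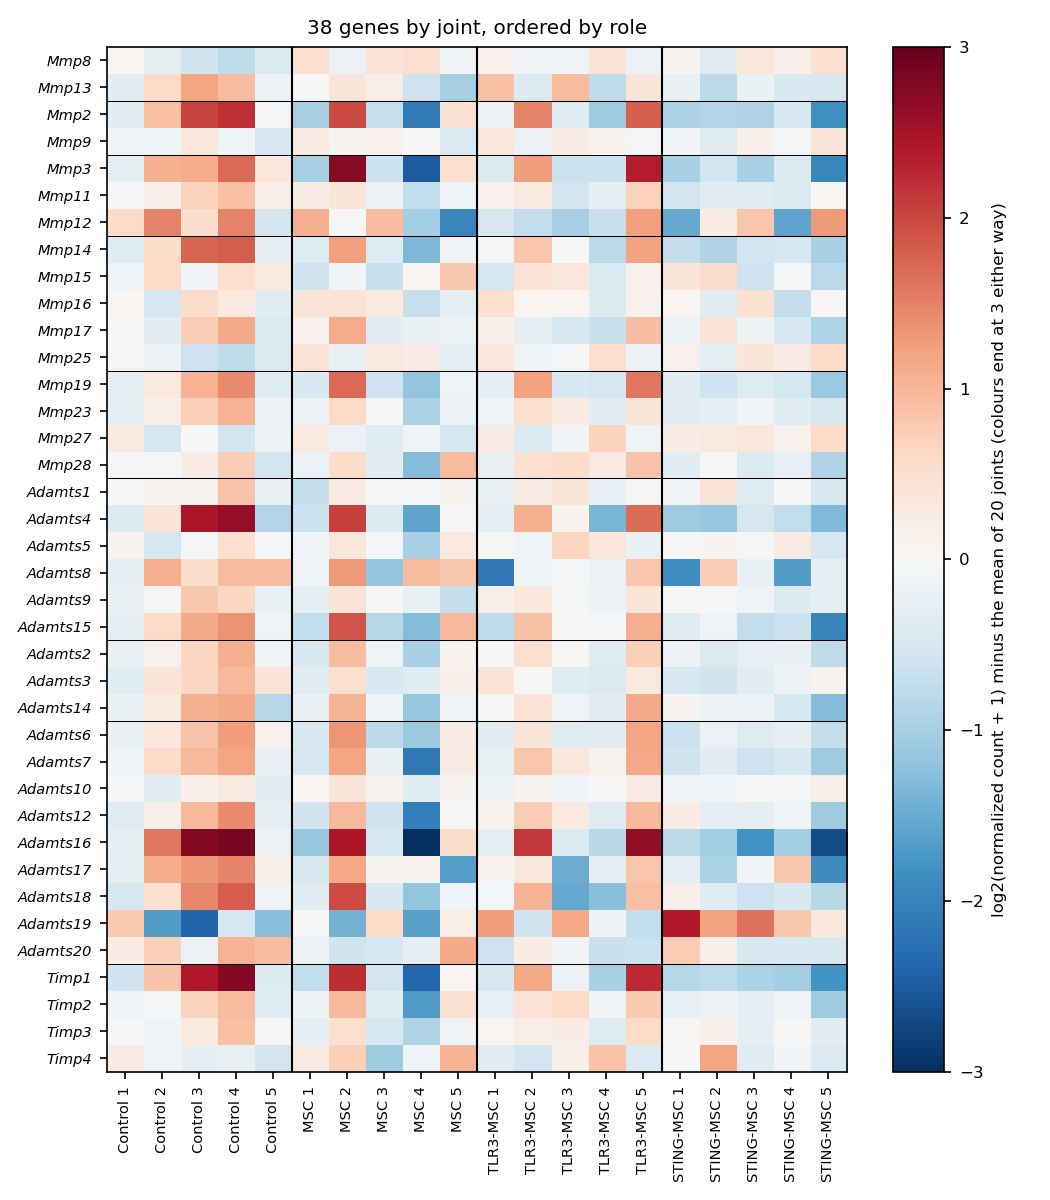
Each cell is log2(normalized count + 1) of a gene in a joint minus the mean over 20 joints (red higher, blue lower; colours end at 3 either way); rows are the 38 genes by role, columns the 20 joints, and black lines separate groups. Control joints 3 and 4, MSC joint 2 and TLR3-MSC joints 2 and 5 are red over Mmp2, Mmp14, Adamts4, Adamts16 and Timp1, and Mmp8 and Mmp25 show the opposite in control joints 3 and 4.

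Neutrophil markers moved with Mmp8 and Mmp25. Of 11 neutrophil markers, 8 were called higher after MSC, 2 after TLR3-MSC and 9 after STING-MSC. Over all genes 5.64%, 2.68% and 6.54% were called higher. The median log2 fold changes of the markers were 0.53, 0.28 and 0.50. The summed level of the neutrophil markers ranged from 394846 to 705730 in control and 564575 to 963092 in MSC joints. It was 527828 to 817593 in TLR3-MSC and 565299 to 879213 in STING-MSC joints, and no marker was at 0 in any joint. After subtraction of the group means, so that only differences between joints of the same group counted, Mmp8 followed the mean log2 level of these markers over the 20 joints with Pearson r = 0.961 (adjusted permutation p = 6e-05) and Spearman rho = 0.94 (6e-05), and r = 0.95 without the 2 joints farthest from the median. Mmp25 gave r = 0.932 (6e-05) and rho = 0.899 (6e-05), and r = 0.915 without 2 joints. The unadjusted permutation p of 1e-05 is the smallest that 100000 within-group permutations can give, and values were adjusted over 12 relations. Mmp9 gave r = 0.489 (adjusted p = 0.0703) and rho = 0.43 (0.117). The part of cell numbers in the rise of Mmp8 and Mmp25 was not tested.

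Other relations, computed in the same way within groups, concerned stromal and bone cells. Adamts5 followed 6 synovial fibroblast markers (r = 0.84, adjusted permutation p = 0.00168; rho = 0.805, 0.00102; r = 0.717 without 2 joints), and Mmp3 the same list (r = 0.73, 0.00753; rho = 0.582, 0.0289; r = 0.515). Mmp13 followed 7 osteoblast and osteocyte markers (r = 0.753, 0.00526; rho = 0.747, 0.00698; r = 0.703), and with 9 chondrocyte markers r was 0.475 (0.0823; rho = 0.383, 0.167; r = 0.352). Timp4 followed 4 adipocyte markers (r = 0.67, 0.00222; rho = 0.746, 0.00102; r = 0.796). Against 7 osteoclast markers, Mmp9 gave r = 0.634 (0.00753; rho = 0.612, 0.0147; r = 0.631) and Mmp14 r = 0.641 (0.0261; rho = 0.46, 0.117; r = 0.66). Timp3 with chondrocyte markers (r = 0.496, 0.0703; rho = 0.38, 0.167; r = 0.449) and Mmp12 with 7 macrophage markers (r = 0.305, 0.275; rho = 0.349, 0.194; r = 0.151) did not pass. In each parenthesis the last r leaves out the 2 joints farthest from the median of the marker score.

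**Figure D5:**
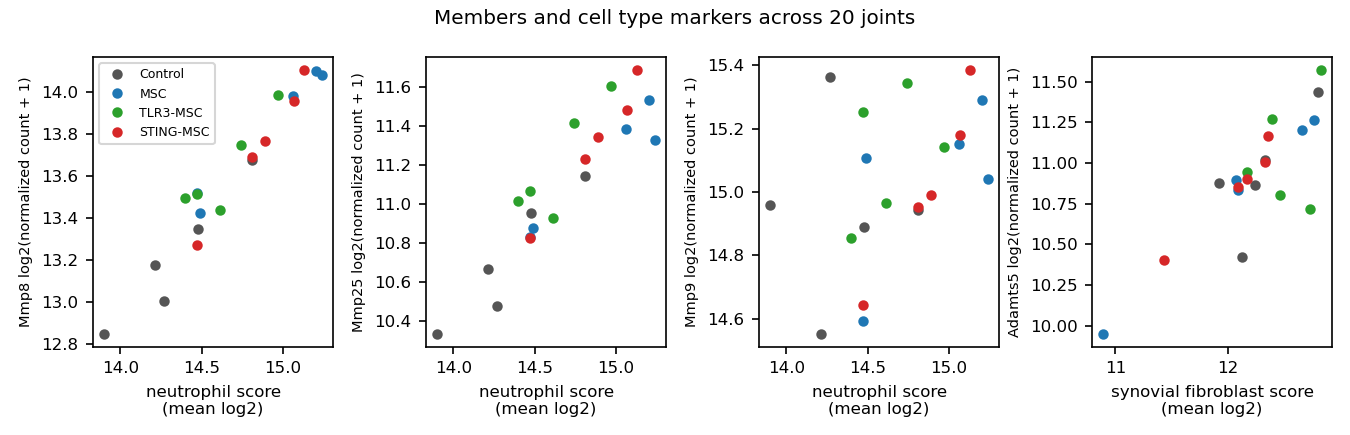
Log2(normalized count + 1) of Mmp8, Mmp25, Mmp9 and Adamts5 (vertical) against the mean log2 level of 11 neutrophil markers or, for Adamts5, of 6 synovial fibroblast markers (horizontal); each point is 1 of 20 joints, coloured by group. Mmp8 and Mmp25 follow the neutrophil score (r = 0.961 and 0.932 after subtraction of group means, which the plotted values still contain), and Mmp9 is more scattered (r = 0.489).

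Beside the decrease after STING-MSC, 3 of 3 endothelial markers (Pecam1, Cdh5 and Kdr) and 1 of 7 osteoclast markers (Ctsk) were called lower than in control. None of 9 chondrocyte, 7 osteoblast and osteocyte and 6 synovial fibroblast markers was, against 5.69% of all genes. Endothelial sums ranged from 5948 to 10192 in control and from 5201 to 7179 in STING-MSC joints, and osteoclast sums from 15354 to 45219 and from 15019 to 19111. No marker of these lists was at 0 in any joint. Synovial fibroblast sums ranged from 163272 to 560794 in control and from 51137 to 215707 in STING-MSC joints. Of these 6 markers 3 had a positive and 3 a negative log2 fold change (median -0.15). Their mean log2 level was 12.28 in control and 12.08 after STING-MSC. Chondrocyte sums ranged from 34443 to 175661 and from 35075 to 79859. Of these 9 markers 2 were positive and 7 negative (median -0.40), with mean log2 levels of 11.24 and 10.82. The 4 epidermal markers summed to 80.97 to 6183 in control and 19.19 to 128.4 in STING-MSC joints, with Krt14, Krt5 and Lor at 0 in some joints. The part of these cell types in the fall of the members was not tested.

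Genes that act with the members were counted by list. Against control, 5.69% of all genes were called lower after STING-MSC, 5.64% higher after MSC, and 2.68% higher and 0.906% lower after TLR3-MSC. Against TLR3-MSC, 1.78% of all genes were called lower after STING-MSC. Of 14 measured genes for activation, inhibition and clearance of the proteases, 3 were called lower after STING-MSC: Pcsk5, a proprotein convertase (-1.58 ± 0.66 (SE), p = 0.0279, FDR = 0.374, exact permutation p = 0.0159), Plat, tissue plasminogen activator (-1.02 ± 0.48 (SE), p = 0.0493, FDR = 0.407, exact permutation p = 0.0238) and Serpine2, a serine protease inhibitor (-0.32 ± 0.14 (SE), p = 0.0337, FDR = 0.382, exact permutation p = 0.0318). After MSC 1 was called higher, Plaur, the urokinase receptor (0.61 ± 0.13 (SE), p = 0.000149, FDR = 0.104, exact permutation p = 0.00794), and after TLR3-MSC 0 were called. Plaur was at 2584 to 3962 in MSC joints and at 1820 to 2439 in control joints. It was lower after STING-MSC (-0.54 ± 0.13 (SE), p = 0.000479, FDR = 0.539, exact permutation p = 0.00794) and TLR3-MSC (-0.50 ± 0.13 (SE), p = 0.00104, FDR = 0.978, exact permutation p = 0.00794) than after MSC, where 2.17% and 1.99% of all genes were. Of 9 substrate genes, Col3a1, which encodes type III collagen, was the only one called lower after STING-MSC (-2.05 ± 0.77 (SE), p = 0.0153, FDR = 0.351, exact permutation p = 0.00794), from 49040 to 343929 in control joints to 13218 to 43455. Acan and Col2a1 were not called. Plat lost its call without control 1 (-1.09), control 2 (-1.08), control 3 (-0.93), control 4 (-0.75), STING-MSC 1 (-1.02), STING-MSC 2 (-1.10), STING-MSC 3 (-1.02) and STING-MSC 5 (-0.82). Serpine2 lost it without control 3 (-0.22), control 4 (-0.24), STING-MSC 3 (-0.32), STING-MSC 4 (-0.32) and STING-MSC 5 (-0.30), and Pcsk5 without control 3 (-1.30), control 4 (-1.25) and STING-MSC 5 (-1.41). Col3a1 and the 3 calls of Plaur were kept whichever joint was left out. Of 6 ADAMTS-like genes, 0 were called in the comparisons with control, and Adamtsl1 was lower after STING-MSC than after TLR3-MSC (-1.11 ± 0.50 (SE), p = 0.0393, FDR = 0.89, exact permutation p = 0.0714), a call lost without STING-MSC 5 (-0.75), TLR3-MSC 2 (-1.09), TLR3-MSC 3 (-1.02) and TLR3-MSC 5 (-0.85).

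The treated groups were also compared with each other. STING-MSC exceeded MSC for Adamts19 and Mmp27, and 0 members were lower (background 2.77% higher and 2.17% lower). In edgeR 3 members were called lower (Mmp3, Adamts15 and Adamts16), and in DESeq2 5 (also Adamts4 and Timp1). Of all 14793 genes, edgeR called 514 lower and DESeq2 454. The limma count in either direction was 4 without MSC joint 4 and 1 without MSC joint 5, STING-MSC joint 3 or STING-MSC joint 5. Over all genes, limma called 410 higher and 321 lower with every joint, and 445 and 524 without MSC joint 4. They were 613 and 372 without MSC joint 5, 456 and 348 without STING-MSC joint 3 and 403 and 302 without STING-MSC joint 5. STING-MSC was below TLR3-MSC for Adamts7, Adamts16 and Mmp28, and 0 members were higher (background 1.78% lower and 0.784% higher). The STING-MSC against TLR3-MSC count was 0 without TLR3-MSC joint 5 or STING-MSC joint 5, 1 without TLR3-MSC joint 2 or STING-MSC joint 3, 5 without TLR3-MSC joint 1 and 9 without TLR3-MSC joint 4. Over all genes, 116 were higher and 264 lower with every joint, and 61 and 83 without TLR3-MSC joint 5. They were 80 and 87 without STING-MSC joint 5 and 174 and 366 without TLR3-MSC joint 4. They were 86 and 150 without TLR3-MSC joint 2, 125 and 195 without STING-MSC joint 3 and 273 and 485 without TLR3-MSC joint 1. TLR3-MSC and MSC did not differ at an unadjusted p of 0.05 in any member in limma, edgeR or DESeq2 (background 1.89% higher and 1.99% lower), and the limma count was 4 without MSC joint 2 and 1 without MSC joint 5 or TLR3-MSC joint 4. Over all genes, 940 were higher and 537 lower without MSC joint 2, against 279 and 295 with every joint. They were 421 and 486 without MSC joint 5 and 292 and 334 without TLR3-MSC joint 4. The median log2 difference of the members was 0.26, higher after TLR3-MSC, against 0.03 over all genes.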

How the data were processed

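RNA from 20 right knee joints, 5 mice in each of 4 groups, was sequenced after poly(A) selection. Per the labels and the study's methods, reads were aligned with STAR 2.7.3a to GRCm39 and counted with HTSeq, and the authors named DESeq2. The deposited values are a signal made by the authors, read counts divided by a median-ratio size factor per library (normalized counts), for protein-coding genes; the counting strand and the filter on genes are not given in the sources used here. Dividing by the step between low values gave whole reads, within 0.1, for 99.8% to 99.9% of values, and depth is the sum of these reads.

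Log2(normalized count + 1) was fitted with limma 3.58.1 (R 4.3.3, trend, no replicate block) over all 14793 genes and 20 joints; a minimum mean of 5 removed no gene. Calls were made where the unadjusted p did not exceed 0.05, and Benjamini-Hochberg FDR was taken over all genes. edgeR 4.0.16 and DESeq2 1.42.0 on the recovered reads were alternatives, beside other pseudocounts, filters, a fit of only the 2 groups compared, quantile scaling, a replicate block and leaving out each joint. Scripts were tested on simulated data. Named in full were the inhibitors, collagenases, gelatinases, Mmp3, Mmp14, Adamts4 and Adamts5, and every other member with an unadjusted p of at most 0.05 in any comparison; other members are given by count, range and level, and pathway genes by count with values for those called. Mmp12, Mmp15, Mmp16, Mmp17, Mmp19, Adamts1, Adamts9, Adamts10 and Adamts14 were named beyond this, after their values were seen. Relations with marker lists used group-centred values and 100000 permutations within groups. The members and lists were chosen with earlier results of these data known. The overlap of 1 member with a neighbouring gene is not reported here.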

Additional observations from a re-analysis of the deposited data

Results flagged for a closer look

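For 27 named genes in each of the 4 groups, there were 4 cases in which 1 joint stood apart from the other 4 of its group, with a gap of more than 0.71 of the group's range; chance flags about 1 in 20 groups. Adamts20 was at 123.2 normalized counts in MSC joint 5, against 36.2 to 48.92 in the other MSC joints. In STING-MSC joint 5, Timp1 was at 478.7 against 810.9 to 971.2, and Timp2 was at 12543 against 21604 to 24489. Timp4 was at 610.4 in STING-MSC joint 2, against 202.4 to 264.9 in the other STING-MSC joints.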

How the results depend on the processing

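Of 31 calls of single genes, 25 were kept under all 9 alternatives that used every joint, and 11 were kept whichever joint was left out. The number of members called after MSC against control was 3, and 5 by DESeq2. After TLR3-MSC it was 3, and 5 with the replicate block. Over all genes after MSC, 835 were called higher and 430 lower, and 977 and 455 by DESeq2. After TLR3-MSC they were 396 and 134, and 348 and 125 with the block. For STING-MSC against control, 0 members had an FDR of at most 0.05 in limma and 2 in DESeq2. Of all 14793 genes, 0 did in limma and 85 in DESeq2. For STING-MSC against MSC the count of 2 became 4 by edgeR and 7 by DESeq2, where the added members were lower after STING-MSC. Over all genes, 410 were higher and 321 lower in limma, 203 and 514 by edgeR, and 472 and 454 by DESeq2. For STING-MSC against TLR3-MSC the count of 3 became 15 in a fit of only these groups, 9 by edgeR and 10 by DESeq2. Over all genes, 116 were higher and 264 lower in limma, and 159 and 1099 in the fit of only these groups. They were 68 and 537 by edgeR and 170 and 506 by DESeq2. The cause was not tested. Leaving out 1 joint gave counts of 1 to 21 for MSC against control, 1 to 6 for TLR3-MSC, 8 to 23 for STING-MSC, 1 to 4 for STING-MSC against MSC, 0 to 4 for TLR3-MSC against MSC and 0 to 9 for STING-MSC against TLR3-MSC. The calls over all genes moved as well. For MSC against control they were 593 higher and 259 lower without control 4, and 1125 and 1343 without MSC joint 2. For STING-MSC against control they were 594 and 274 without control 4, and 1164 and 1165 without control 1.

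Uncalled log2 fold changes turned sign when 1 joint was left out. The ranges against control after MSC were -0.218 to 0.127 for Adamts5 and -0.00263 to 0.206 for Mmp9. After TLR3-MSC they were -0.426 to 0.00261 for Mmp13, -0.0803 to 0.257 for Timp2, -0.204 to 0.0799 for Timp3 and -0.111 to 0.247 for Timp4. After STING-MSC they were -0.183 to 0.0705 for Adamts5, -0.00919 to 0.193 for Mmp9 and -0.0402 to 0.357 for Timp4.

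Replicate numbers mark different mice, and the deviations of same-numbered joints correlated between -0.658 and 0.464, so that the numbers did not pair the joints. With the replicate block, counts were 2 after MSC, 5 after TLR3-MSC and 19 after STING-MSC against control. They were 3 for STING-MSC against MSC, 0 for TLR3-MSC against MSC and 3 for STING-MSC against TLR3-MSC. Over all genes with the block, 788 were called higher and 380 lower after MSC against control. They were 348 and 125 after TLR3-MSC, and 874 and 723 after STING-MSC. For STING-MSC against MSC they were 342 and 289, and for TLR3-MSC against MSC 228 and 255. For STING-MSC against TLR3-MSC, 90 were higher, and fewer were lower than the 264 without the block. The block ended the calls of Timp3 after MSC (log2 fold change -0.496) and of Adamts2 after STING-MSC (-0.661) against control, and of Mmp28 between STING-MSC and TLR3-MSC (-0.759), and it ended no other call of a member; among pathway genes it ended those of Plat, Serpine2 and Adamtsl1.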
